A study of Mus musculus with 6 samples.

Results

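Von Willebrand factor and the endothelial molecules that hold leukocytes were followed as 8 named genes, Vwf, Selp, Sele, Icam1, Icam2, Vcam1, Cd34 and Madcam1, in RNA sequencing of lymphatic endothelial cells from the meninges of male C57BL/6J wild-type mice. The genes were chosen by name as a functional group, with the age differences in these same counts already known, so the young and old values below are a description and no member's difference is offered as a test. Of the 8 genes, 7 have a row among the 22964 genes of the count table. Madcam1 is not analysed here. All 7 passed the filter on low counts, which kept 15394 genes.

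The study compared 3 samples from young mice aged 2 to 3 months with 3 samples from old mice aged 20 to 24 months, none of them treated. Cells lacking CD45, a leukocyte protein, and carrying CD31 and podoplanin were sorted by flow cytometry, and the RNA was amplified linearly before sequencing. The mice came from a commercial breeder or the National Institute on Aging, and the labels do not tie samples to suppliers. Whether a sample was 1 animal or a pool is not stated either, so the spread between samples may be technical.

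Von Willebrand factor is a very large multimeric glycoprotein that endothelial cells and megakaryocytes store, together with P-selectin, in secretory granules; the endothelial granules are called Weibel-Palade bodies. When the granules fuse with the cell surface, von Willebrand factor captures platelets and P-selectin lets leukocytes roll along the vessel wall. E-selectin, made on demand after cytokine exposure, slows them further. ICAM-1, ICAM-2 and VCAM-1 are immunoglobulin-family proteins that bind leukocyte integrins and bring about firm arrest and crossing, and CD34 and MAdCAM-1 are sialomucin-bearing proteins that can present ligands to L-selectin. In inflamed lymphatic vessels ICAM-1 and VCAM-1 also serve leukocytes that leave the tissue.

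Selp and Sele lie in the selectin cluster of chromosome 1 yet had different profiles over the 6 samples, and Icam1 is, like Sele, a classic target of the cytokine-activated factor NF-kB. The 250 bases before the transcript start of these 3 genes are therefore shown, from RefSeq on GRCm38.p6, with matches to the NF-kB site form GGNNNTTCC, searched on both strands, in capitals. The windows are chr1:164115014-164115263 for Selp, chr1:164047984-164048233 for Sele and chr9:21015690-21015939 for Icam1, all on the plus strand.
Selp: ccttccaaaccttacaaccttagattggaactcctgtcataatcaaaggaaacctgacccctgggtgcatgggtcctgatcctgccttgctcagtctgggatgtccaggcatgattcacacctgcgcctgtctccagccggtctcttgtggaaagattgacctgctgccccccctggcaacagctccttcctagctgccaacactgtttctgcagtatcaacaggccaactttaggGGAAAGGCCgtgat
Sele: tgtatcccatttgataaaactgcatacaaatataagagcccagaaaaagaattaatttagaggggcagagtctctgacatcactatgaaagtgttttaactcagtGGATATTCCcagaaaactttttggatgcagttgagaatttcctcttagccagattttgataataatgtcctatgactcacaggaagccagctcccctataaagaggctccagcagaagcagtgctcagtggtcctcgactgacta
Icam1: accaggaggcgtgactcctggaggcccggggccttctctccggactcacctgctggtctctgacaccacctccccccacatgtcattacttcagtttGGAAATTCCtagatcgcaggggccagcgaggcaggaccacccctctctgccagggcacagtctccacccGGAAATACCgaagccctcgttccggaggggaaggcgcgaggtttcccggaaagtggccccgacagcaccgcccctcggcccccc
The Selp window holds 1 match, 14 to 6 bases before the start, and the Sele window holds 1, 145 to 137 bases before it. The Icam1 window holds 2, at 153 to 145 and 84 to 76 bases before its start. Of 32851 RefSeq promoter windows of this length, 15.7% hold such a match. The Sele window also holds the TATA box TATAAA, 49 to 44 bases before the start, which 12.4% of windows have, whereas the Selp and Icam1 windows do not. GATAA, the core of sites for GATA factors, also searched on both strands, occurs 2 times in the Sele window and in 22.6% of all windows, and AGGAA, the core of sites for ETS factors, occurs on 1 strand or the other in each of the 3 windows and in 60.3% of all. Promoter sequences were found for 5 of the 8 genes. A match is a string of letters and was not tested as a binding site.

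Vwf separated the ages more widely than any other member. Vwf (ENSMUSG00000001930; GRCm38 chromosome 6, 125546774 to 125686679, plus strand) measured 39.0, 66.3 and 31.8 CPM (counts per 1000000) in the young and 221, 325 and 328 CPM in the old group, listed here and below in the order of samples 1, 2 and 3. Every old sample was above every young one, and the lowest old value was 3.33 times the highest young one. The means were 45.7 ± 18.2 and 291 ± 61.1 CPM (SD, n = 3 each), a fitted log2 fold change of 2.67 (SE 0.37), or 6.37-fold. These values rest on 629 to 1306 estimated counts per young sample and 2952 to 6726 per old sample. In bulk RNA, a change in the share of cells that carry a transcript and a change in its amount per cell cannot be told apart.

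Selp (ENSMUSG00000026580; chromosome 1, 164115264 to 164150026, plus strand), which encodes P-selectin, measured 18.9, 15.3 and 17.6 CPM in the young and 16.2, 95.9 and 109 CPM in the old group. The young samples were close together, old samples 2 and 3 were far above them, and old sample 1 lay within the young range. The fitted log2 fold change was 2.09 (SE 0.71) with means of 17.3 ± 1.81 and 73.7 ± 50.1 CPM (SD, n = 3 each). Without old sample 1 it was 2.57. Old sample 1 was thus above the young range for Vwf and inside it for Selp. On levels per kilobase of exon, the Selp to Vwf ratio came to 1.77, 0.842 and 2.01 for young and to 0.268, 1.07 and 1.21 for old samples, with overlap between the ages.

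Sele (ENSMUSG00000026582; chromosome 1, 164048234 to 164057677, plus strand), which encodes E-selectin, measured 0, 9.80 and 30.7 CPM in the young and 0.15, 17.5 and 26.6 CPM in the old group. Sample 1 of each age had almost none of it, with 0 counts in young sample 1, where 3 counts would be 0.186 CPM, and 2 counts in old sample 1. The ages overlapped fully, and the fitted log2 fold change was 0.13 (SE 1.87), an error far larger than the value. The direction turned when single libraries were left out, with values from −0.61 to 1.59. The CPM summed over 15 leukocyte markers was also lowest in sample 1 of each age, at 408 CPM in young sample 1 and 226 CPM in old sample 1 against 925 to 3538 CPM in the other 4 samples. The list was led by Csf1r (961 ± 861 and 294 ± 351 CPM) and Lyz2 (296 ± 157 and 252 ± 210.3 CPM), Cd3e was at 0 in young samples 1 and 2 and old sample 1, and S100a8 in young sample 1. Their part in the Sele values was not tested.

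**Figure D1:**
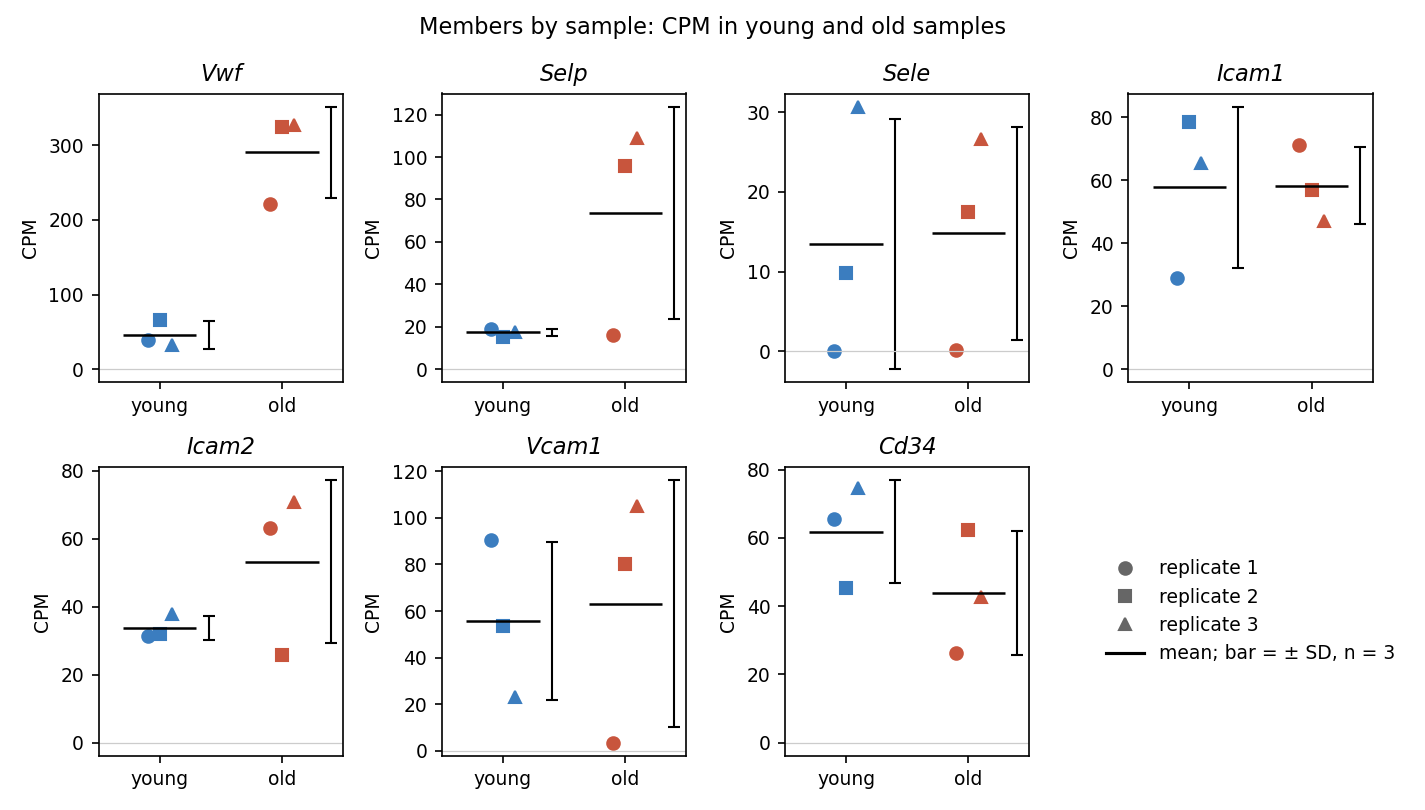
Level of each of the 7 measured members in CPM (vertical axes, linear) in the 3 young and 3 old samples. Symbols mark the replicate number, lines the mean and bars ± SD. For Vwf every old sample lies above every young one, for Selp old sample 1 (16.2 CPM) stays with the young samples, and for Sele sample 1 of each age is at or near 0.

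The integrin ligands of the immunoglobulin family did not separate the ages. Icam1 (ENSMUSG00000037405; chromosome 9, 21015985 to 21028817, plus strand), the ligand of the leukocyte integrins LFA-1 and Mac-1, measured 28.9, 78.5 and 65.6 CPM in the young and 71.1, 57.0 and 46.9 CPM in the old group. All 3 old samples lay inside the young range. Its fitted log2 fold change of 0.02 (SE 0.49) was the smallest in size of the 7, and its sign turned with library size as the only scaling (−0.14) and with upper-quartile scaling (−0.02).

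Icam2 (ENSMUSG00000001029; chromosome 11, 106377656 to 106388075, minus strand), a constitutive endothelial ligand of LFA-1, measured 31.5, 31.9 and 37.9 CPM in the young and 63.2, 25.9 and 70.9 CPM in the old group. Old samples 1 and 3 were above all young samples and old sample 2 was below all of them. The fitted log2 fold change was 0.66 (SE 0.54), and it ranged from 0.40 without old sample 3 to 0.99 without old sample 2.

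Vcam1 (ENSMUSG00000027962; chromosome 3, 116109949 to 116129688, minus strand), the ligand of the integrin VLA-4, measured 90.6, 53.4 and 23.1 CPM in the young and 3.52, 80.3 and 105 CPM in the old group. Old sample 1 was the lowest of the 6 and old sample 3 the highest, so the ages overlapped. The fitted log2 fold change was 0.18 (SE 0.98). It was 0.74 without old sample 1 and −0.41 without old sample 3.

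Cd34 (ENSMUSG00000016494; chromosome 1, 194938819 to 194961279, plus strand), a surface sialomucin of endothelium, fibroblasts and blood progenitors, measured 65.4, 45.2 and 74.7 CPM in the young and 26.3, 62.4 and 42.6 CPM in the old group. It was the 1 member with a negative fitted log2 fold change, −0.50 (SE 0.49), and the ages overlapped. The CPM summed over 11 fibroblast markers was 5372 to 8220 CPM in young and 2591 to 3079 CPM in old samples, led by Col1a2 (1983 ± 525 and 667 ± 93.5 CPM) and Col1a1 (1532 ± 389 and 545 ± 153 CPM). Dpt was at 0 in young sample 1 and in all 3 old samples, and Clec3b in young sample 1 and old samples 1 and 2. The part of fibroblast RNA in the Cd34 and Vcam1 values was not tested. Annotated antisense or opposite-strand genes overlap Selp, Icam1, Vcam1 and Cd34, and the strandedness of the counting is not stated. Those overlapping Selp, Gm16548 and Gm16587, had at most 241 and 21 counts in a sample, and the one overlapping Cd34, Gm16897, had at most 246.

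Read against the whole table, edgeR called 0 of 15394 genes after Benjamini-Hochberg adjustment (0.0% of genes), and so none of the 7 members. At an unadjusted p under 0.05, 5.56% of all genes counted, 2.86% higher and 2.7% lower in old samples, and Vwf and Selp were the 2 members among them. DESeq2 called 130 genes (0.844%), Vwf the only member, and limma-voom called 3 (0.0195%), none of them a member. Every old sample was above every young one for 5.56% of genes and below for 6.44%, and the only member in either group was Vwf. A fitted log2 fold change at least as high as that of Vwf was found for 2.2% of genes, and at least as high as that of Selp for 4.18%. Since the members were chosen with this contrast known, nothing is read from these counts. The median log2 fold change was 0.18 over the 7 members and 0.02 over all tested genes.

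**Figure D2:**
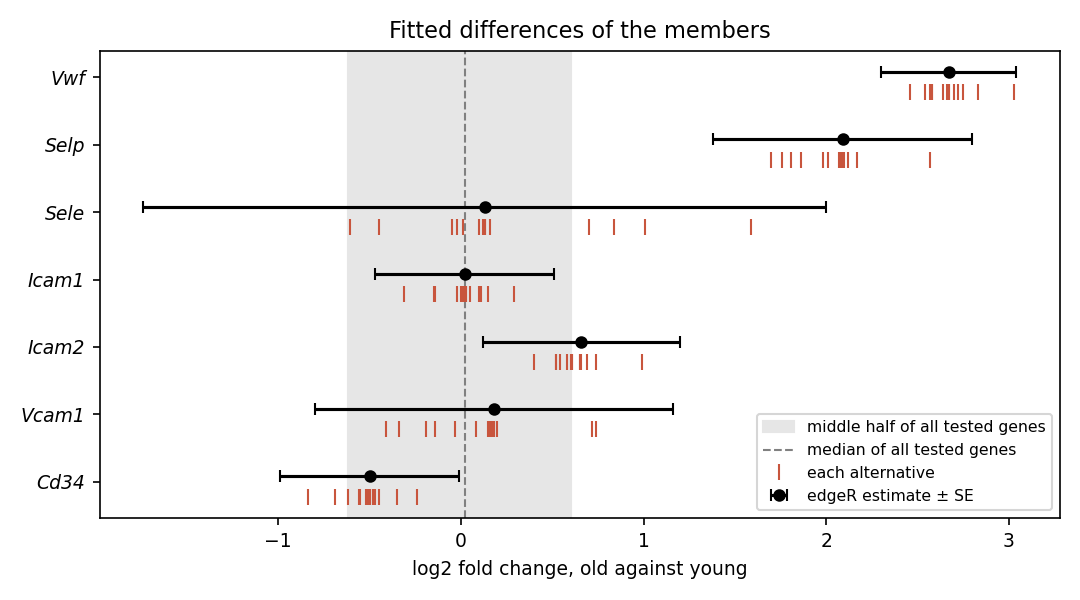
Fitted log2 fold change of each member, old against young (horizontal axis), with its SE (black), and the value under each of the 14 other settings of scaling, filter, test or samples (red ticks). The grey band is the middle 50% of all tested genes, from −0.62 to 0.60. Vwf stays between 2.46 and 3.03 and Selp between 1.70 and 2.57, while the values of Sele, Icam1 and Vcam1 fall on both sides of 0.

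Compared per length, the order of the members differed between the ages. In CPM per kilobase of the union of a gene's exons, the young order was Icam2 (17.7 ± 1.87), Icam1 (13.2 ± 5.90), Cd34 (8.47 ± 2.07), Vcam1 (6.28 ± 3.81), Sele (4.64 ± 5.38), Selp (3.91 ± 0.411) and Vwf (2.85 ± 1.13; SD, n = 3). The old order was Icam2 (28.0 ± 12.6), Vwf (18.1 ± 3.80), Selp (16.7 ± 11.4), Icam1 (13.4 ± 2.79), Vcam1 (7.11 ± 5.99), Cd34 (6.00 ± 2.48) and Sele (5.07 ± 4.62). No neighbours in either order differed beyond their spread, since each pair's ranges of mean ± SD overlapped. Vwf thus had the lowest place in the young order and rank 2 in the old one. Among 15295 genes ranked by the same measure, it stood at percentiles of 33.1 to 50 in the young and of 78.0 to 87.1 in the old group. Selp stood at percentiles of 45.7 to 52.0 in the young group and at 50.5, 88.1 and 88.9 in the old group.

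The measure of length matters for Vwf, whose exons together cover 16064 bases while its longest annotated transcript has 8834. Per kilobase of longest transcript Vwf had 5.18 ± 2.06 in young and 33.0 ± 6.92 CPM in old samples and ranked 5 and 2 of the 7. Per kilobase of coding sequence it ranked 7 in young and 4 in old samples, and Cd34 came 1 in young samples with 53.3 ± 13.0. Ranks between genes therefore depend on the length used, and coverage along a transcript cannot be seen in counts per gene.

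**Figure D3:**
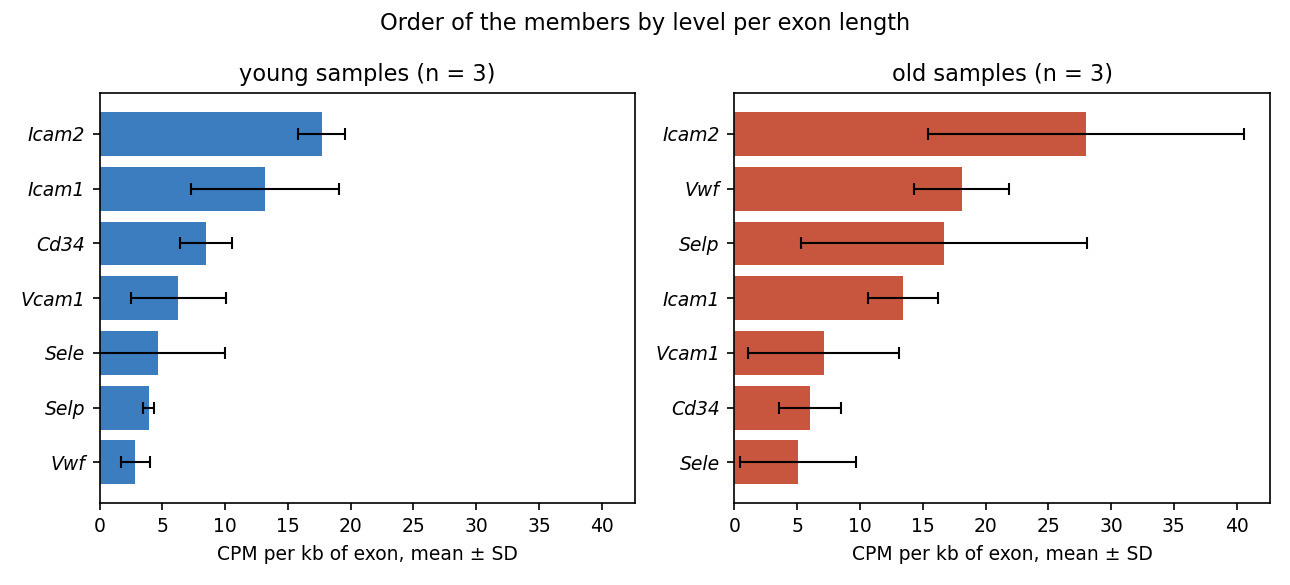
Members ordered by mean level in CPM per kilobase of exon (horizontal axes from 0) in young (left) and old (right) samples, with ± SD over 3 samples. Vwf is the lowest bar in young samples (2.85) and the bar below Icam2 in old samples (18.1), while Icam1 is at 13.2 and 13.4.

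Blood vessel endothelium is the textbook site of high Vwf and of P-selectin, and the summed level of its markers was higher in every old sample, though single markers differed. The CPM summed over 16 blood endothelial markers came to 709.9, 854 and 984 for young and to 1143, 1361 and 1675 for old samples, without overlap. Of the 15 tested, 11 had a positive log2 fold change, the median was 0.46 and edgeR called none. Flt1, a VEGF receptor, measured 220.1, 243 and 244 CPM in the young and 178, 391 and 421 CPM in the old group, with old sample 1 below all young samples. Slc2a1, a glucose transporter of brain vessels, was also lowest in old sample 1, at 4.19 CPM, and Ackr1, Bmx and Slc38a5 had log2 fold changes of −2.83, −1.78 and −1.64. The SEs of these falls were 1.91, 1.22 and 1.42, and 4 of the 15 tested were negative. The largest rises were in Nos3, Abcb1a and Cldn5, at 2.30, 1.89 and 1.48 (SE 0.88, 0.48 and 0.39). None of these rising markers overlapped between the ages. With Plvap, 4 of the 15 tested had every old sample above every young one, beside 5.56% of all genes. Markers picked for the largest rise are likely to lack overlap, so nothing is read from it. Slc2a1, Bmx, Slc38a5, Nos3, Abcb1a and Cldn5 were picked out after their values were seen. Plvap, the diaphragm protein of fenestrated vessels that some lymphatic endothelium also makes, had 177 ± 29.7 and 303 ± 37.6 CPM (SD, n = 3 each). Mfsd2a, a lipid transporter of brain endothelium, was at 0 in young sample 1 and old sample 1, and Ackr1, the receptor that marks venules, was at 0 in old sample 1. Flt1 and Plvap led the blood endothelial sum, and Plvap is not confined to blood vessels, so ratios to the sum are a description. The ratio of Vwf to the summed blood endothelial CPM came to 0.0550, 0.0776 and 0.0323 for young samples. For old samples it was 0.193, 0.239 and 0.196, without overlap. For Selp that ratio was 0.0178 to 0.0267 in young and 0.0142, 0.0705 and 0.0650 in old samples.

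Lymphatic endothelial markers were also higher in sum in the old samples, at 17071 to 21011 CPM against 10705 to 13273 CPM for 9 genes, among them Ccl21a (2728 ± 342 and 5277 ± 714 CPM) and Mmrn1 (2026 ± 265 and 3288 ± 408 CPM). None of the 9 was at 0 in any sample. Per kilobase, the ratio of Vwf to Prox1, the lymphatic fate factor, was 0.0190 to 0.0366 in young and 0.116 to 0.182 in old samples, and that to Pecam1, which encodes CD31, was 0.0311 to 0.0802 and 0.117 to 0.237. Relative to the blood endothelial sum, Prox1 and Pecam1, Vwf was above the young range in each of the 3 ratios. The Vwf difference was known beforehand, at a log2 fold change of 2.67 beside 0.29 for Prox1 and 0.71 for Pecam1. Separation of these ratios was thus largely set in advance and is no separate support. Which cells carried Vwf was not tested.

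Platelets and megakaryocytes also carry Vwf and Selp. Of 14 markers, 12 are in the table and 5 were tested. Their summed CPM came to 36.9, 149 and 206 for young and to 39.0, 101 and 17.3 for old samples, with overlap. The sum was led by P2ry12, which microglia also make (103 ± 93.0 and 12.9 ± 11.9 CPM), and by Pf4 (17.3 ± 3.94 and 10.8 ± 12.1 CPM). P2ry12 alone had 119 and 187 CPM in young samples 2 and 3, most of the sum there, so the sum is a poor measure of platelet RNA. Gp1ba, the platelet receptor for von Willebrand factor, was at 0 in young sample 1 and old samples 1 and 3 and had at most 2.18 CPM. Treml1 and Gp5 were at 0 in all 3 old samples. Of the 5 tested, 3 had a positive log2 fold change, the median was 0.96 and edgeR called none. Those 3 were Ppbp, Clec1b and Gp1bb, named here after their values were seen. Ppbp, a platelet chemokine gene, had no counts in the young samples and measured 1.12, 42.1 and 1.32 CPM in the old group. Clec1b, which encodes the platelet receptor for podoplanin, measured 0.124, 0.0508 and 0 CPM in the young and 5.91, 10 and 1.32 CPM in the old group. Gp1bb, a platelet glycoprotein, had means of 0.648 and 1.26 CPM with overlap. The part of platelet RNA in the Vwf and Selp values was not tested. Of 12 pericyte and smooth muscle markers, 10 had a positive log2 fold change, with a median of 1.01 and none called. They summed to 699.8 to 1090 CPM in young and to 2344, 1052 and 1200 CPM in old samples 1, 2 and 3, with Rgs5 (285 ± 41.9 and 417 ± 79.5 CPM) and Myh11, which had 668 CPM in old sample 1 and 22.3 to 67.8 CPM elsewhere. Progenitor and mast cell markers summed to 49.7 to 92.7 CPM in young and 18.7 to 80.3 CPM in old samples and were led by Kit and Spi1.

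**Figure D4:**
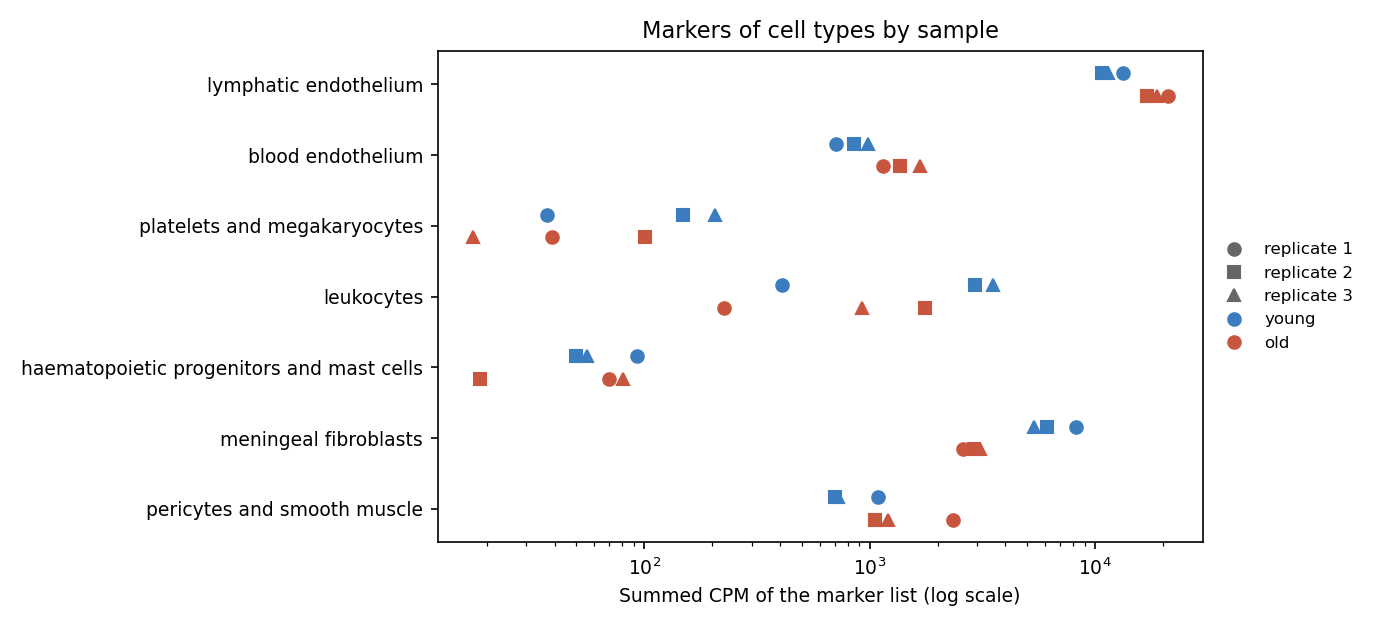
Summed CPM of each cell type's marker list (horizontal axis, log scale) in each sample. Blue is young, red is old, and the symbol gives the replicate number. Lymphatic and blood endothelial sums are higher in every old sample, fibroblast sums are lower in every old sample, and sample 1 of each age has the lowest leukocyte sum of its group.

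Partners of von Willebrand factor in its granules, secretion and clearance came next. Of 30 tested genes, edgeR called none after adjustment over all genes, 21 had a positive log2 fold change and the median was 0.39. Over all tested genes, 51.0% were positive and the median was 0.02, which holds as background for the lists that follow. At an unadjusted p under 0.05 there were 5 higher and 0 lower, beside 2.86% of all genes higher and 2.7% lower. The 4 most abundant were Mmrn1, Stab2, F8 and Angpt2. F8 encodes coagulation factor VIII, which travels in plasma bound to von Willebrand factor, and measured 354, 225 and 250.1 CPM in the young and 448, 534 and 441 CPM in the old group, without overlap. Stab2, a scavenger receptor that clears von Willebrand factor and hyaluronan, had 542 ± 82.2 and 925 ± 439 CPM (SD, n = 3 each), the latter drawn up by old sample 1 at 1403 CPM. Angpt2, an angiopoietin stored in the same granules as Vwf and Selp, had 304 ± 39.6 and 257 ± 27.3 CPM, with a fitted log2 fold change of −0.24 (SE 0.23). Its ages overlapped. Adamts13, the protease that cuts von Willebrand factor, had counts only in old sample 2, at 9.23 CPM, and was not tested.

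Transcription factors known to act on Vwf or on endothelial genes at large numbered 15, of which 11 had a positive log2 fold change, with a median of 0.41. Without old sample 1 the count was 7 and the median −0.06. None was called with all samples, and 4 were higher at an unadjusted p under 0.05, beside 2.86% of all genes. Ets1, an ETS factor, had 247 ± 40.7 and 402 ± 9.84 CPM without overlap, and Foxo1, a forkhead factor, had 269.9 ± 21.9 and 451 ± 183 CPM with all but 1 old sample well above the young range. Nfib had 389 ± 77.6 and 517 ± 249.7 CPM and Nfia 453 ± 78.6 and 393 ± 51.4 CPM. Both ranges overlapped.

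Other adhesion and junction genes of endothelium were mostly positive. Of 23 tested, 19 had a positive log2 fold change with a median of 0.48, none was called, and 9 had every old sample above every young one, beside 5.56% of all genes. The rise was not particular to this list. All 9 lymphatic markers were positive, with a median of 0.69, and 6 did not overlap. All 9 tested fibroblast markers were negative, with a median of −1.18. Lyve1 is also a lymphatic marker here, as is Mmrn1 of the granule partners. A shift in the share of cells was not tested. Cdh5, the adherens junction cadherin of endothelium, had 699 ± 78.6 and 975 ± 149 CPM, and Cd47, a surface partner of leukocyte SIRP-alpha, had 663 ± 90.8 and 886 ± 155 CPM. Lyve1, which binds hyaluronan on entering dendritic cells, had 1149 ± 168 and 1483 ± 95.2 CPM. Stab1, another scavenger and adhesion receptor, had 1359 CPM on average over all samples and a log2 fold change of 0.02 (SE 0.15). Ackr1, the chemokine-presenting receptor of venules, had at most 7.57 CPM. Icam4, Icam5 and Glycam1 are not analysed here.

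Leukocyte counter-receptors of the members were followed as a measure of the binding partners in the sorts. Of 9 tested, 3 had a positive and 6 a negative log2 fold change, the median was −0.88, and none was called. Selplg, the P-selectin ligand, measured 0.993, 253 and 294 CPM in the young and 8.38, 63.6 and 1.86 CPM in the old group. It was below 10 CPM in young sample 1 and in old samples 1 and 3. Itgb2, the beta chain of the ICAM-binding integrins, had 74.4 ± 74.2 and 11.9 ± 10.6 CPM, and Itgam, its alpha chain in Mac-1, had 261 ± 224 and 70.8 ± 56.3 CPM. Itga4, the alpha chain of VLA-4, which lymphatic endothelium can also make, had 35.3 ± 13.9 and 85.4 ± 42.3 CPM, and Itgb7, the partner chain for MAdCAM-1 binding, had at most 25.5 CPM. Glg1, a Golgi protein that can bind E-selectin, had 361 ± 84.0 and 233 ± 58.8 CPM.

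Enzymes that build selectin ligands, 11 tested, had a median of 0.36 with 7 positive, and none was called. B4galt1, a galactosyltransferase, measured 233, 212 and 249 CPM in the young and 121, 123 and 112 CPM in the old group, at a log2 fold change of −0.96 (SE 0.25). It was the only 1 of the 11 enzymes whose ages did not overlap, beside 6.44% of all genes with every old sample below every young one. St3gal6, a sialyltransferase, had 143 ± 35.0 and 118 ± 38.3 CPM, Chst2, a sulfotransferase of L-selectin ligands, 29.1 ± 6.80 and 57.3 ± 48.9 CPM, and Tpst1, which sulfates tyrosines, 36.4 ± 13.4 and 46.7 ± 20.9 CPM.

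Cytokine receptors and genes of the NF-kB pathway, which switches on Sele, Icam1 and Vcam1 in inflamed endothelium, were split evenly. The list also holds Nfkbia and Tnfaip3, which restrain the pathway, so the split is not one of activating inputs alone. Of 27 tested, 14 were positive and 13 negative with a median of 0.22, and none was called. Il6st, the shared receptor chain of the interleukin-6 family, had 1009 ± 82.0 and 1246 ± 289.6 CPM, and Osmr, the oncostatin M receptor, measured 163, 284 and 279 CPM in the young and 316, 569 and 490.1 CPM in the old group. Neither overlapped between the ages, but Il6st barely so, with 1071 CPM in young sample 1 and 1073 CPM in old sample 2. Of the 27, 3 had every old sample above every young one, beside 5.56% of all genes. Stat3 had 185 ± 23.0 and 246 ± 80.9 CPM and Jun 302 ± 129.9 and 206 ± 34.4 CPM.

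Genes whose log2 CPM profile over the 6 samples was most like that of Vwf, among 10586 genes of at least 5 CPM, were Lrrc58 (Pearson r = 0.994), Gtf2h5 (0.99), Abcc9 (0.985), Myoc (0.981) and Otub2 (0.981). Of these, Myoc, which encodes myocilin, had 8.73 to 31.1 CPM in young and 62.1 to 113 CPM in old samples, and Abcc9, a potassium channel subunit of pericytes, 39.8 to 62.0 and 106 to 161 CPM. For Selp the list was Midn (0.988), Ppp1r15b (0.982), Bud31 (0.981), Elk4 (0.977) and Lmcd1 (0.965), each of them highest in old samples 2 and 3. Midn had 123 to 145 CPM in the young samples, 147 CPM in old sample 1 and 339 and 387 CPM in old samples 2 and 3. The 6 points come from the same libraries that define the age groups, and these likenesses are a description. The 2 lists share no gene, and between Vwf and Selp themselves r was 0.747 (Spearman rho 0.543).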

How the data were processed

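The authors deposited whole-number estimated counts per gene. FastQC, Salmon and the build mm10 are named, without versions or roles, per the submitters' processing notes. How transcripts were combined into genes, with which annotation, and whether strand was used is not stated there. The 6 samples held 14285794 to 21043945 counts, and counting error is small beside the spread between samples. Of 22964 genes, 22738 had a symbol in GENCODE M21 (GRCm38), the source of positions and lengths. With edgeR 4.0.16 in R 4.3.3, genes were filtered (filterByExpr, minimum 10 counts, total 15), scaled by TMM and fitted by a robust quasi-likelihood model on age, tested on both sides and adjusted by Benjamini-Hochberg at 0.05. On simulated counts the fit returned median fold changes close to those put in, but called few of the changed genes after adjustment. CPM are counts over the TMM-scaled library size, and log2 CPM used a prior count of 2. Alternatives were DESeq2 1.42.0, limma-voom (limma 3.58.1), other scalings and filters, a replicate block and leaving out each sample.

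The members and all gene lists were chosen with earlier results of these data known. Besides the members, the text names the 4 most abundant genes of each pathway list, the 2 most abundant of each marker list, markers at 0, fixed partners (Angpt2, Adamts13, F8, Ackr1, Selplg, Itgb2, Itga4, Itgb7 and Gp1ba) and the 5 genes most like Vwf and Selp. Among the genes this rule names, 1 is not reported here.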

Additional observations from a re-analysis of the deposited data

How the results depend on the processing

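Vwf, Selp, Icam2 and Cd34 kept their direction under all 14 alternatives, with log2 fold changes of 2.46 to 3.03, 1.70 to 2.57, 0.40 to 0.99 and −0.84 to −0.24. Sele, Icam1 and Vcam1 did not. Leaving out 1 sample at a time gave Sele −0.61 to 1.59 (−0.02, −0.61, −0.45 and −0.05 without old sample 2, old sample 3, young sample 1 and young sample 2), Icam1 −0.31 to 0.29 (−0.15 and −0.31 without old sample 1 and young sample 1) and Vcam1 −0.41 to 0.74 (−0.03, −0.41 and −0.19 without old sample 2, old sample 3 and young sample 3). Icam1 was −0.14 with library size only and −0.02 with upper-quartile scaling, and Vcam1 was −0.34 in limma-voom. The cause was not tested. DESeq2 called 130 genes and 1 member and counted 1374 genes at an unadjusted p under 0.05, and limma-voom called 3 genes, against 0 called and 856 counted in edgeR. Without the filter 1543 genes were counted, with more genes tested. Leaving out 1 sample gave 0 to 1 called genes, 0 to 0 called members, 4 to 5 members higher in old, against the reported 6, and 696 to 1396 genes at an unadjusted p under 0.05, the 1 call without old sample 1 and the 1396 without old sample 2. Without old sample 1, an alternative chosen after the data were seen, the positive members came to 7 of 15 Vwf transcription factors and 2 of 4 progenitor and mast cell markers (11 and 1 with it), while the other 11 lists moved by at most 2 members. The labels do not say whether the replicate numbers pair the samples. Deviations of same-numbered samples correlated at 0.0792, 0.0533 and −0.0119. Young samples 1 and 2 correlated best with their own number, and young sample 3 correlated better with old sample 2 (0.0593). Correlations this small, over 3 samples per age, cannot decide it. With the replicate block 0 genes were called, 712 were counted at an unadjusted p under 0.05 and Vcam1 was −0.14. Of the 5 genes most like Vwf, 2 remained by Spearman rho, and of those most like Selp 0 did, while the prior count of 0.5 kept all 5 for each. For Vwf the loss reflects ties, since Lrrc58, Gtf2h5, Abcc9 and Myoc all had the highest possible rho, 1.0. Otub2 had 0.943. Sele rested on 0 counts in young sample 1 and 2 in old sample 1, so a level under the 3-count limit (0.186 CPM in young sample 1) could not be seen there.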

Other observations

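Spn, which encodes a leukocyte sialomucin and was picked out after its values were seen, measured 0.0621, 1.02 and 0.0900 CPM in the young and 17.8, 1.02 and 27.3 CPM in the old group. Old samples 1 and 3 were above all young samples, and edgeR did not call it after adjustment over all genes.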
